A study of Mus musculus with 3 samples.

Results

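The genes described here are 9 genes that handle iron and heme, namely Hmox1, Blvrb, Fth1, Ftl1, Trf, Tfrc, Slc11a2, Slc11a1 and Slc40a1. They were chosen by name, and all 9 have a column among the 32886 genes of the deposited count table, of which 20173 genes hold at least 1 count. Each was followed through the 23 immune cell clusters that the authors defined and through 3 regions of the kidney, the cortex, the OM (outer medulla) and the IM (inner medulla).

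Droplet-based single-cell RNA sequencing was run on CD45+ cells sorted from these 3 kidney regions, to ask whether the transcriptome of an immune cell carries its position in the organ. All groups came from untreated, wild-type male C57BL/6J mice aged 10 weeks, whose kidneys were perfused, cut by hand into the regions and digested with enzymes, so that the region is what separates the groups. Aachen, Bonn and Hamburg each generated 1 dataset with all 3 regions, and the cells of 1 region in 1 dataset are called a library below. The 9 libraries hold 621 to 3677 cells and 20266 cells in all. No source used here ties a cell to an animal, and the region was cut by eye, so that n counts datasets (n = 3). The p-values measure how the differences between regions vary from dataset to dataset, not from animal to animal.

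The datasets differed in depth, with a median of 744 to 1270 unique molecules (UMIs) per cell in the Aachen libraries, 3209.5 to 3505 in the Bonn libraries and 2802 to 3067 in the Hamburg libraries. The Aachen libraries carry 2 barcode suffixes each. Barcodes found in more than 1 region of a dataset numbered 16 in Aachen, 13 in Bonn and 0 in Hamburg. Levels are given in CPM, which are UMIs scaled to the same total in every library. Blvrb and Tfrc were listed at 0 in all 6961 Hamburg cells. So were 8 of the 4064 genes that reached at least 20 CPM in both other datasets. Levels of Blvrb and Tfrc are therefore given from Aachen and Bonn alone (n = 2), while the fits kept the Hamburg zeros unless stated otherwise. By the same rule 257 of 5660 genes were listed at 0 in Aachen and 0 of 4001 in Bonn, with no member among them. The cluster names were checked against marker sums. Markers of neutrophils made up 745 of 10000 UMIs in the cluster named Neutrophils and 0.208 in Macrophage_1, and markers of resident macrophages made up 320 of 10000 UMIs in Macrophage_1 and 16.03 in cDC2. The Neutrophils cluster also held 63.9 UMIs of macrophage markers in 10000 (4.19 to 113 over the datasets).

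Iron inside a cell comes from transferrin, which circulates bound to iron and enters through the transferrin receptor, or from heme that the cell breaks down after it has engulfed red cells or debris. Iron that is not used is held inside the ferritin shell or leaves through ferroportin, the product of Slc40a1, which is the known cellular iron exporter. Resident macrophages of the spleen and liver are known for recycling heme iron, and the kidney adds filtered transferrin and heme proteins that its tubules take back. Several of these mRNAs carry an iron-responsive element, a hairpin to which iron regulatory proteins bind when iron is low. Such a hairpin in the 5′ untranslated region (UTR) blocks translation, and hairpins in the 3′ UTR protect the mRNA from decay, so that the level of an mRNA with a 5′ element need not follow the level of its protein.

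The hairpins are shown because their place in an mRNA bears on whether iron regulatory proteins can act on its translation or on its decay. They were searched in the mouse GENCODE annotation on GRCm38, the build called mm10, as 29 bases with the loop CAGTGN, an unpaired C before a 5-base upper stem with at least 4 pairs, and a 6-base lower stem, on the transcribed strand. Capitals mark the 6 bases of the loop.
Fth1 5′ UTR, chr19:9982732-9982760, + strand: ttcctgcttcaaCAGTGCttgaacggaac
Ftl1 5′ UTR, chr7:45459779-45459807, − strand: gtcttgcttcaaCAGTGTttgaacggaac
Slc40a1 5′ UTR, chr1:45925465-45925493, − strand: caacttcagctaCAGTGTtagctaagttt
Slc11a2 3′ UTR, chr15:100395153-100395181, − strand: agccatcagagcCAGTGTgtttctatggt
Tfrc 3′ UTR, first of 4, chr16:32631219-32631247, + strand: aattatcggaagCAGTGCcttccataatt
Tfrc 3′ UTR, second of 4, chr16:32631598-32631626, + strand: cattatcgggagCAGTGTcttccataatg
Tfrc 3′ UTR, next of 4, chr16:32631663-32631691, + strand: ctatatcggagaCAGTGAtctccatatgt
Tfrc 3′ UTR, last of 4, chr16:32631710-32631738, + strand: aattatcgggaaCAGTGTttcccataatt

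The Fth1 and Ftl1 hairpins share the same bases around the loop, and all 5 bases of the upper stem pair in both. In the Slc11a2 hairpin, which lies in 1 long transcript form, 4 of 5 upper and 2 of 6 lower pairs form. The 4 hairpins of Tfrc pair at all 5 upper and at 5 or 6 of the 6 lower positions. By the same rule 198 of 20899 genes with a 5′ UTR (0.947%) and 863 of 21022 genes with a 3′ UTR (4.11%) hold a match, and with all 5 upper and at least 4 lower pairs 6 genes (0.0287%) and 17 genes (0.0809%) do. These letters were not found in the UTRs of Hmox1, Blvrb, Trf or Slc11a1. A match describes the sequence and says nothing of its use in these cells.

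On the same build, Hmox1 lies on the + strand of chr8:75093621-75100589, Blvrb on the + strand of chr7:27447978-27466144 and Trf on the − strand of chr9:103204001-103230444. Fth1 spans chr19:9980598-9985098 and Ftl1 chr7:45457944-45459884. Tfrc spans chr16:32608920-32632794 and Slc11a2 chr15:100387898-100425072. Slc11a1 and Slc40a1 lie on the same chromosome, at chr1:74375195-74386062 and chr1:45908068-45926523. All 9 are annotated as protein-coding.

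The level of a gene in a cluster is given as CPM, averaged over the libraries of a dataset with at least 10 cells of the cluster and then over datasets. The clusters were built by the authors from these same transcripts, so that their levels are described with no test, and levels are compared between clusters but not between genes.

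**Figure D1:**
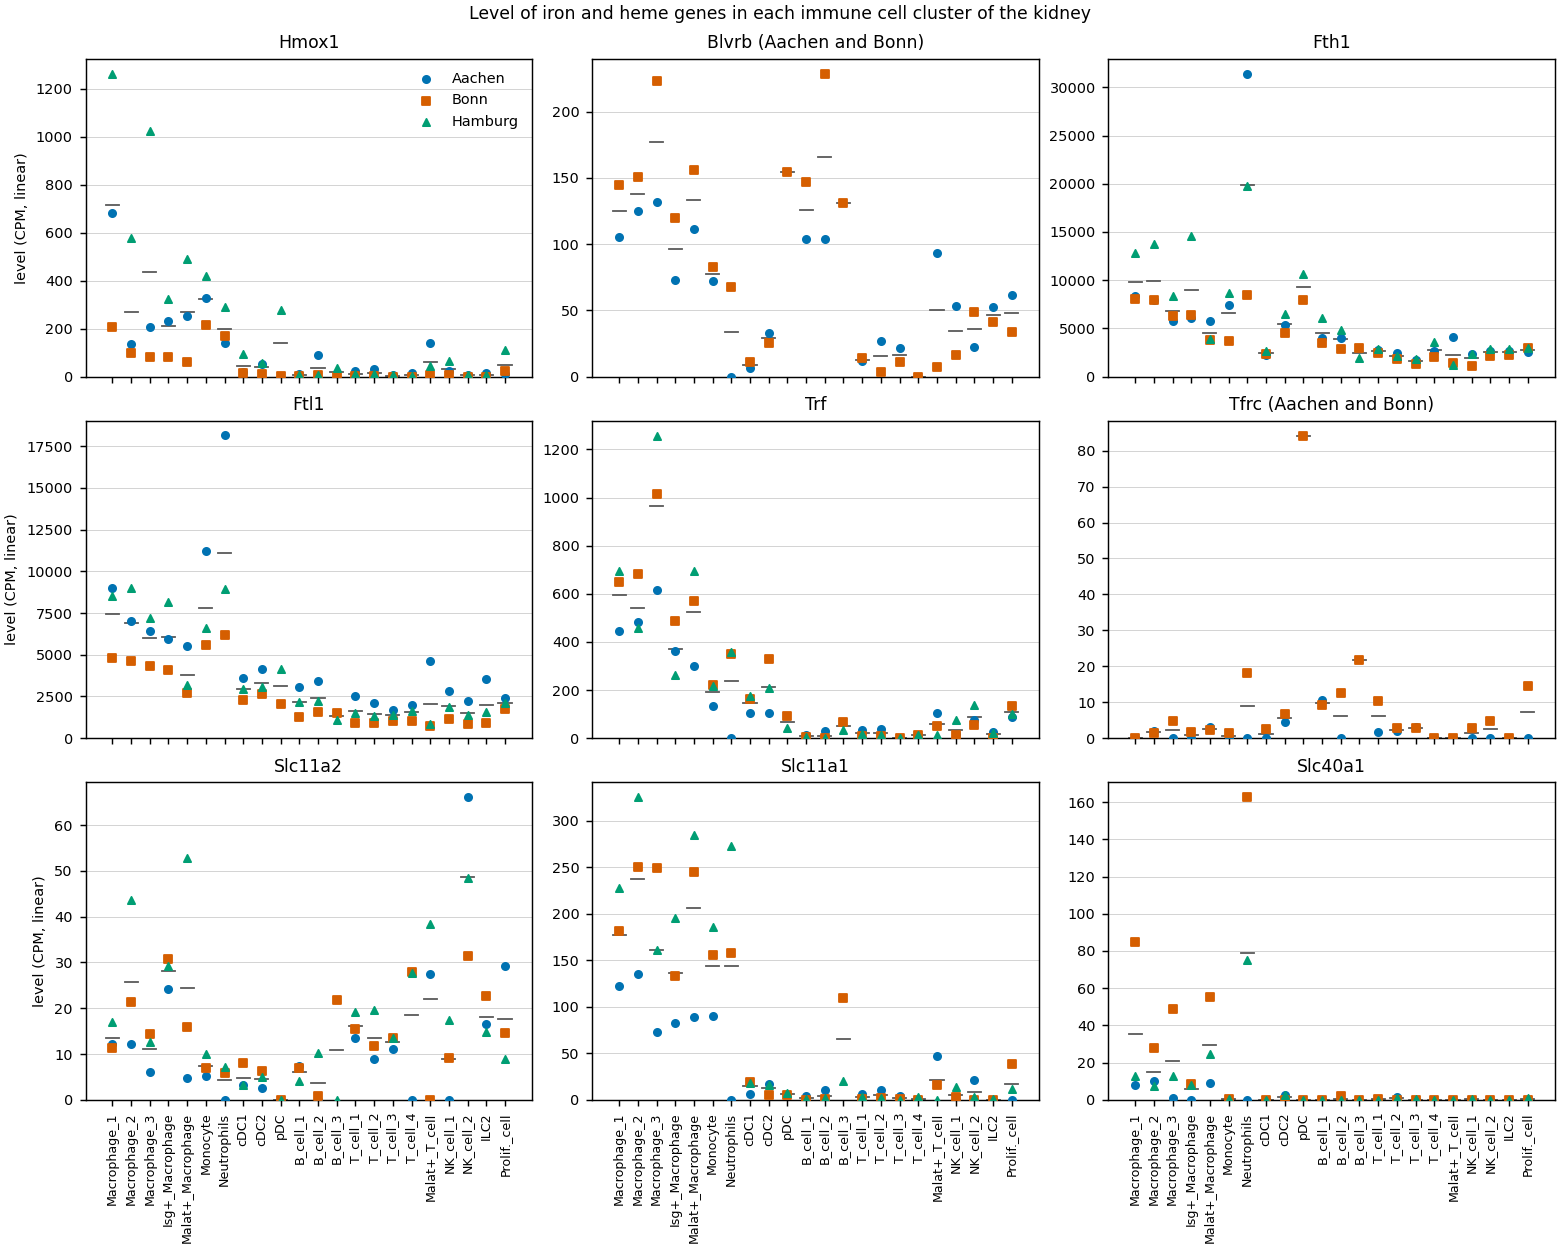
Level of each gene in 22 immune cell clusters, as CPM on a linear axis that starts at 0 in each panel. Points are the datasets (Aachen, Bonn, Hamburg), the short lines their mean. Hmox1, Trf and Slc11a1 are high in the macrophage clusters, Slc40a1 has its highest mean in Neutrophils (79.2 CPM), and Slc11a2 in NK_cell_2 (48.6 CPM).

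Hmox1 mRNA was found mainly in the myeloid clusters. Hmox1, which encodes heme oxygenase 1, the inducible enzyme that opens the heme ring and frees its iron, was highest in Macrophage_1 at 716 ± 528 CPM (SD, n = 3). Its Macrophage_1 level was 683 CPM in Aachen, 206 in Bonn and 1260 in Hamburg, so that the datasets spread over a wider range than the clusters next in order. Macrophage_3 followed at 437 ± 511 CPM, monocytes at 321 ± 102 and Macrophage_2 at 271 ± 267, and the ranges of these clusters overlap. In each dataset Macrophage_1 lay above Macrophage_2 and Macrophage_3, with 206 against 98.7 and 81.1 CPM in Bonn. B_cell_1 held 5.53 ± 5.04 CPM. Among the lymphocyte clusters Malat+_T_cell was highest at 62.5 ± 69.7 CPM from 21 UMIs, with 140 CPM in 1 dataset. A Hmox1 UMI was found in 52.4% of Macrophage_1 cells (mean of 3 datasets), against 0.833% of B_cell_1, and with each cell thinned to 500 UMIs in 24.3% against 0.243%. Transcripts of the immediate early and heat shock genes, which rise when tissue is digested, were also most abundant there, at 309 of 10000 UMIs in Macrophage_1 (93.5 to 543 over datasets) against 126 in Macrophage_2 and 148 in Macrophage_3. Their part in the Hmox1 level was not tested.

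Blvrb encodes biliverdin reductase B, which acts after heme oxygenase and also reduces flavins. Its level was shared between macrophages and B cells, while Hmox1 was low in B_cell_1 (5.53 CPM). Macrophage_3 held 132 and 223 CPM in Aachen and Bonn, B_cell_2 held 104 and 228, and B_cell_1 held 104 and 147. Macrophage_1 had 105 and 145 CPM, a range that overlaps that of B_cell_1. T_cell_1 (12.8 ± 1.90 CPM, n = 2), cDC2 (29.2 ± 5.29) and cDC1 (8.84 ± 3.14) were below all of these in both datasets. With cells thinned to 500 UMIs a Blvrb UMI was seen in 5.96% of B_cell_1, in 5.88% of Macrophage_1 and in 0.293% of T_cell_1. Without Aachen the highest cluster was B_cell_2 in place of Macrophage_3.

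Ferritin transcripts were found in every cluster and differed in amount. Fth1, the heavy chain that oxidises iron for storage, had its highest mean in Neutrophils at 19898 ± 11459 CPM, with 31420 CPM in Aachen, 8504 in Bonn and 19769 in Hamburg. The Aachen value rests on 15 cells with 225 Fth1 UMIs. Macrophage_2 (9872 ± 3375 CPM) and Macrophage_1 (9780 ± 2663) followed with overlapping ranges. The dendritic cell clusters stood apart from each other, with 5302, 4569 and 6509 CPM in cDC2 and 2229, 2331 and 2697 CPM in cDC1 of Aachen, Bonn and Hamburg, and the ranges did not overlap. T_cell_3 was lowest at 1632 ± 282 CPM. Even there 52.7% of cells thinned to 500 UMIs held a Fth1 UMI, against 97.4% of Neutrophils. Ftl1, the light chain that helps the iron core form, ran from 11085 ± 6277 CPM in Neutrophils, 7798 ± 3007 in monocytes and 7443 ± 2305 in Macrophage_1 to 1376 ± 331 in T_cell_3. Its processed copy Ftl1-ps1 has a column of its own, which is at 0 in Aachen, so that the split of reads between these near-identical copies is uncertain for Ftl1.

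Trf, which encodes transferrin, the plasma iron carrier made mainly by the liver, was strongest in Macrophage_3 at 963 ± 323 CPM, with 618 CPM in Aachen, 1016 in Bonn and 1257 in Hamburg. In each dataset Macrophage_3 lay above Macrophage_1 (445, 650 and 694 CPM) and Macrophage_2 (483, 684 and 459 CPM). The Macrophage_1 and Macrophage_2 ranges overlap. cDC2 held 214 ± 113 CPM and B_cell_1 7.43 ± 5.17 CPM. With cells thinned to 500 UMIs, 35.9% of Macrophage_3, 8.29% of cDC1 and 0.422% of B_cell_1 held a Trf UMI.

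Tfrc, the receptor that takes up iron-loaded transferrin and is known to be high in dividing cells, was scarce. B_cell_1 held 10.5 and 9.15 CPM in Aachen and Bonn, from 54 UMIs in all. The level was 0.0821 CPM in Macrophage_1 and 1.70 in Macrophage_2. Plasmacytoid dendritic cells, measured only in Bonn, held 84.1 CPM from 43 cells of the cortex. At these counts the order of the other clusters was not resolved. Among the clusters measured in both datasets, the highest without Aachen was Neutrophils.

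Slc11a2, which encodes the divalent metal transporter that lets iron out of the endosome, had its highest mean in a lymphoid cluster. NK_cell_2 held 66.0 CPM in Aachen, 31.3 in Bonn and 48.5 in Hamburg. The next cluster by mean, Isg+_Macrophage, held 24.3 to 30.8 CPM, and single datasets of Malat+_Macrophage (up to 52.7 CPM), Macrophage_2 (43.5) and Malat+_T_cell (38.3) reached above the lowest NK_cell_2 value. The NK_cell_2 levels come from 68 UMIs in 527 cells. NK_cell_1 held 8.82 ± 8.71 CPM and T_cell_1 16.04 ± 2.91. After thinning to 500 UMIs a Slc11a2 UMI was found in 2.26% of NK_cell_2 cells, against 0.340% of B_cell_1.

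Slc11a1 encodes a metal transporter of the phagosome membrane, and C57BL/6 mice are known to carry an allele whose protein is impaired. Its mRNA was most abundant in phagocytes, with 237 ± 95.3 CPM in Macrophage_2, 177 ± 52.8 in Macrophage_1, 161 ± 87.8 in Macrophage_3 and 144 ± 48.9 in monocytes, and these ranges overlap. cDC1 (14.6 ± 7.17 CPM) and T_cell_1 (3.16 ± 2.44) lay below all of them. A UMI was found in 43.4% of Macrophage_2 cells and in 0.259% of B_cell_1, and after thinning in 10.4% and 0.0408%.

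Ferroportin mRNA was rare and uneven. Slc40a1 had its highest mean in Neutrophils at 79.2 ± 81.3 CPM, with 162 CPM in Bonn, 75.0 in Hamburg and 0 in the 15 Aachen cells of the only library that passed 10 cells. Macrophage_1 held 35.2 ± 43.0 CPM and monocytes 0.337 ± 0.351. In Neutrophils 2 of 25 Aachen cells (8%, exact 95% binomial interval 0.984 to 26.0%), 19 of 51 Bonn cells (37.3%, 24.1 to 51.9%) and 40 of 197 Hamburg cells (20.3%, 14.9 to 26.6%) had a UMI. Among T, B and NK cells, which should lack the gene, 7 of 10727 cells (0.0653%) had one. The median depth was 2253 UMIs in the Neutrophils with a Slc40a1 UMI and 2270 in those without. S100a8, a granulocyte alarmin gene, stood at 27236 CPM in the former and 19728 CPM in the latter, against 0.625 CPM in resident macrophages. C1qa, a complement gene of macrophages, stood at 1607 and 1250 CPM in these Neutrophils and at 6099 CPM in resident macrophages. The part of macrophage transcripts in the Slc40a1 of Neutrophils was not tested.

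**Figure D2:**
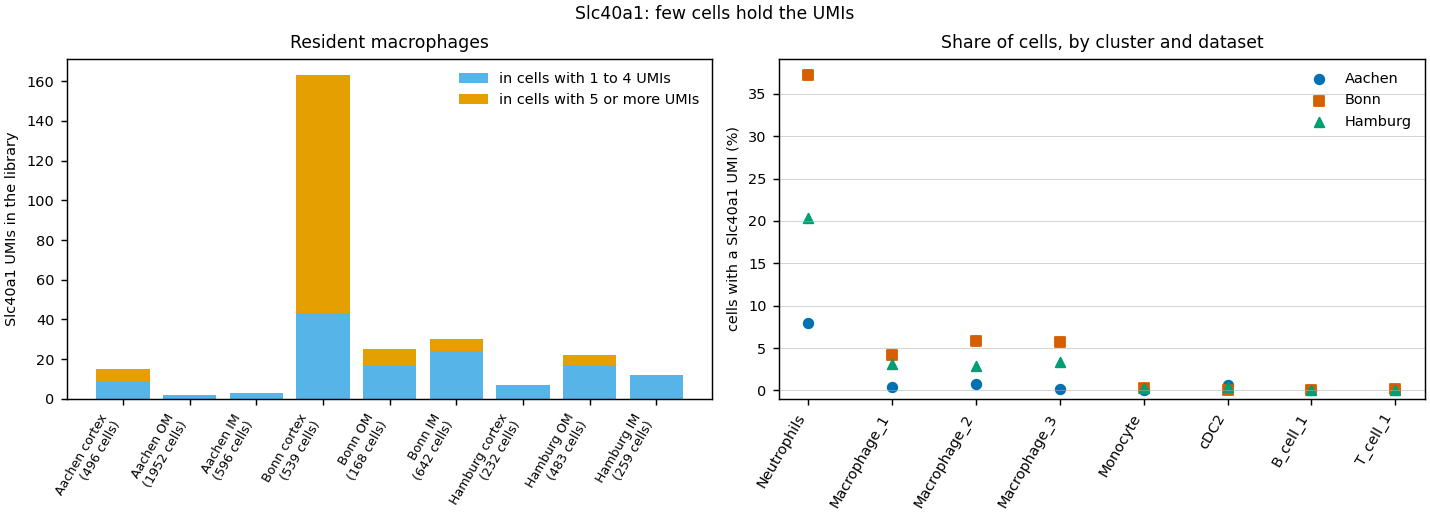
Left, Slc40a1 UMIs in the resident macrophages of each library, as stacked bars from 0, divided into UMIs in cells with 1 to 4 and in cells with 5 or more. Right, the share of cells with a Slc40a1 UMI in percent, by cluster and dataset. The Bonn cortex library holds 163 UMIs, of which 120 lie in 9 cells, and the Neutrophils lie above the other clusters in each dataset.

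Among the resident macrophages, which unite Macrophage_1, Macrophage_2, Macrophage_3 and Isg+_Macrophage, 114 of 5367 cells (2.12%) held all 279 Slc40a1 UMIs. Of these UMIs 145 (52.0%) lay in 13 cells with 5 or more each, and 1 cell held 29. In the Bonn cortex library 9 cells of 539 held 120 of 163 UMIs (73.6%). The macrophage level of Slc40a1 thus rests on few cells, which bears on the comparison of regions below.

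Over the clusters with cells in all datasets, the pattern most like that of each gene was sought by Pearson's r of log2(CPM + 1) over 20 clusters, as a description in which the clusters share libraries and depth. Cd14, the endotoxin co-receptor gene, was nearest to Hmox1 (r = 0.957), followed by Dleu2 and Ctsb, and nearest to Slc11a1 (0.955). Tpd52 was nearest to Fth1 (0.903) and to Ftl1 (0.9497), Tmbim1 to Trf (0.957), Pou2f2 to Blvrb (0.898), Ext2 to Slc11a2 (0.828) and Gna12 to Slc40a1 (0.866). The nearest gene to Tfrc was Hist1h4i at 0.639. Within the group, Hmox1 and Slc11a1 (r = 0.946) and Fth1 and Ftl1 (0.929) ran closest together.

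The next question was whether cells of the same class differed between the regions. Counts were summed per library and class, and the quasi-likelihood test of edgeR, with dataset as a block, compared the mean of OM and IM (the medulla) with the cortex, with p-values adjusted by Benjamini-Hochberg over all genes tested and a threshold of 0.05. Log2 differences are medulla minus cortex and are given ± SE.

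In resident macrophages no member changed past the threshold, while Slc11a1, Slc40a1 and Fth1 had lower values in the medulla and Trf a higher one at unadjusted p alone. Of 8687 genes tested 108 passed (1.24%), with 878 genes at an unadjusted p under 0.05, and of the 8 members tested 0 passed. DESeq2 called 48 genes and none of the members. The median log2 difference was −0.23 over the members and 0.0058 over all genes. Between OM and cortex 0.852% of genes and between IM and cortex 0.196% passed, again with no member, and between OM and IM 0 genes passed, with 267 at an unadjusted p under 0.05.

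**Figure D3:**
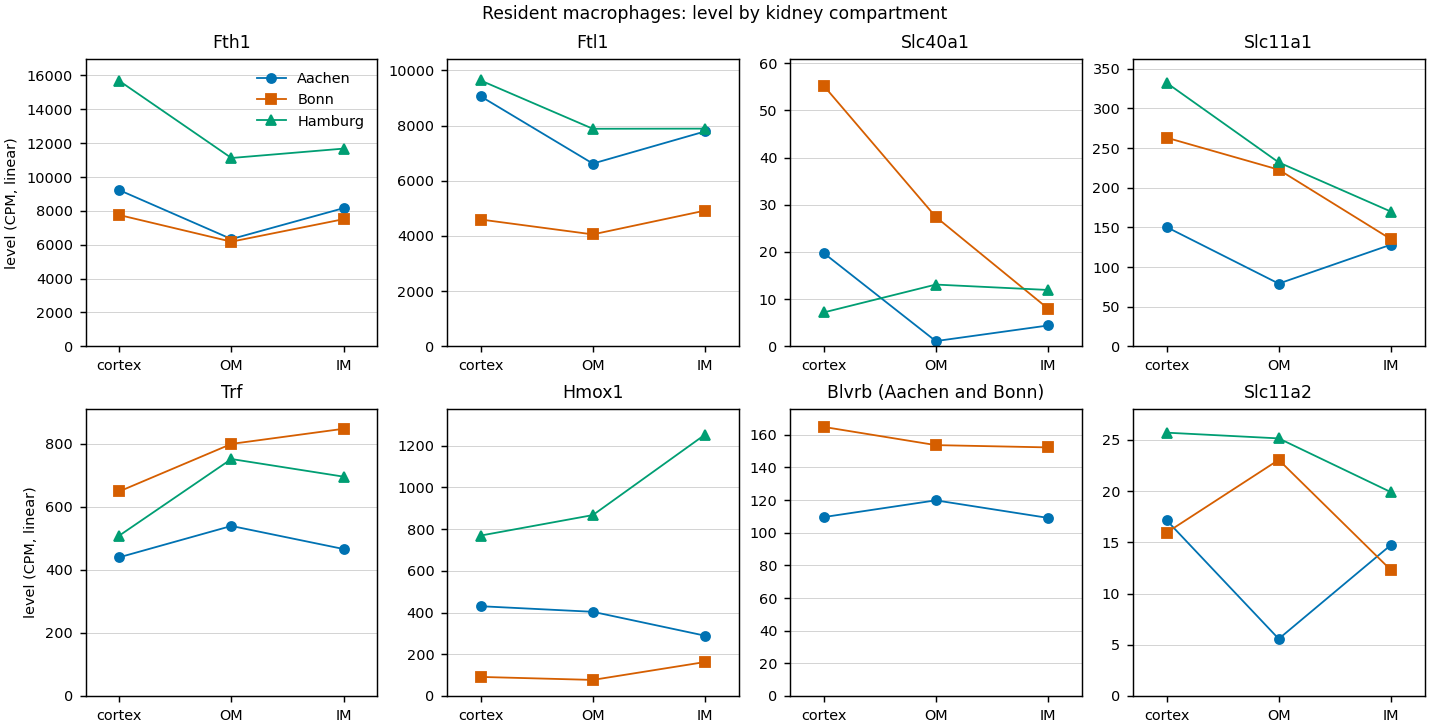
Level of 8 genes in resident macrophages by region, as CPM on linear axes that start at 0, with each line joining the 3 libraries of a dataset. Fth1 and Slc11a1 are lower in OM than in cortex in each dataset, Trf is higher, and for Slc40a1 Hamburg runs opposite to Aachen and Bonn.

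For storage, Fth1 stood at 9230 CPM in the cortex, 6337 in OM and 8163 in IM of Aachen, at 7758, 6182 and 7512 CPM in Bonn and at 15683, 11124 and 11679 CPM in Hamburg. OM was the lowest region in each dataset, and Hamburg lay above the other datasets in every region. The log2 difference was −0.33 ± 0.11 (adjusted p = 0.198), and for OM alone −0.46 ± 0.12 (adjusted p = 0.121). With no filter on low counts the OM difference passed, at −0.47 ± 0.14 (adjusted p = 0.0461, beside 1.99% of all genes). Ftl1 stood at 9061, 6623 and 7789 CPM in Aachen, at 4597, 4057 and 4920 CPM in Bonn and at 9635, 7884 and 7890 CPM in Hamburg, in cortex, OM and IM in turn. OM was the lowest region in each dataset, while in Bonn IM lay above the cortex. The Ftl1 difference was −0.22 ± 0.11 (adjusted p = 0.546).

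For transport, Slc11a1 stood at 150.5, 79.1 and 128 CPM in cortex, OM and IM of Aachen, at 263, 223 and 135 CPM in Bonn and at 332, 232 and 170 CPM in Hamburg. The cortex was the highest region in 3 of 3 datasets, although the regions overlap when datasets are pooled. Its difference was −0.64 ± 0.16 (adjusted p = 0.0790).

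Slc40a1 stood at 19.8, 1.11 and 4.42 CPM in cortex, OM and IM of Aachen, at 55.3, 27.4 and 8.01 CPM in Bonn and at 7.18, 13.1 and 11.95 CPM in Hamburg. Aachen and Bonn were highest in the cortex and Hamburg was lowest there. The fitted difference was −1.56 ± 0.42 (adjusted p = 0.104). Without the Bonn cortex library, where 9 cells held most UMIs, it was −1.01 (adjusted p = 0.818), and without Bonn altogether −0.87.

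The calls for these transporters hung on the libraries used. Without Aachen, Slc11a1 (adjusted p = 0.00512) and Slc40a1 (adjusted p = 0.0448) both passed as lower in the medulla, beside 2.65% of all genes. They did so as well without the Aachen IM library, at an adjusted p of 0.00240 and 0.0339 with 2.8% of genes, and with no filter on low counts, at 3.47e-04 and 7.70e-08 with 2.3%. Slc11a2 stood at 5.57 to 25.7 CPM over the 9 libraries with no ordered regions and a difference of −0.24 ± 0.28 (adjusted p = 0.874).

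For supply, Trf was higher in OM than in cortex in 3 of 3 datasets, at 440, 539 and 466 CPM in cortex, OM and IM of Aachen, 648, 799 and 847 CPM in Bonn and 508, 751 and 695 CPM in Hamburg. The difference was 0.36 ± 0.13 (adjusted p = 0.251). Macrophage_3, the cluster with the most Trf, made up 7.05% of the cortical resident macrophages in Bonn, the only cortex library that held it, and 44.7%, 42.9% and 23.0% of those of OM in Aachen, Bonn and Hamburg. In IM it made up 1.17%, 43.1% and 15.4% in the same order. Averaged over the fits of Macrophage_1 and Macrophage_2 alone, the difference was 0.16. Macrophage_3, which had no fit of its own, and Isg+_Macrophage were not part of that average. Tfrc stayed at or under 1.87 CPM in every library and was left out by the filter.

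For heme, Hmox1 moved in opposite directions between the datasets. It stood at 430, 404 and 289 CPM in cortex, OM and IM of Aachen, at 91.2, 76.8 and 163 CPM in Bonn and at 769, 867 and 1253 CPM in Hamburg, with a difference of 0.20 ± 0.21 (adjusted p = 0.858). IM was the lowest region in Aachen and the highest in Bonn and Hamburg. Between IM and cortex the difference was 0.40 ± 0.24 (adjusted p = 0.862), and it passed as higher in IM without Aachen, at 0.79 ± 0.17 (adjusted p = 0.0173, beside 2.32% of all genes), and without the Aachen IM library, at 0.80 ± 0.17 (adjusted p = 0.0164, beside 2.02%). Immediate early and heat shock transcripts stood at 230, 188 and 223 of 10000 UMIs in the 3 regions. Blvrb had nearly the same level in each region, at 109 to 120 CPM in Aachen and 152 to 165 CPM in Bonn, and a difference of −0.0089 from the datasets that hold it.

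The summed level of genes used as kidney tubule markers, most of it Fxyd2, also differed between the regions. Markers of the kidney tubule made up 0.450 of 10000 UMIs in cortical resident macrophages (0.273 to 0.647 over datasets), 3.69 in OM (2.83 to 4.67) and 3.92 in IM (0.973 to 8.29). All 12 of the list were detected, but most of the UMIs were of Fxyd2, with 4161 in all 5367 cells. Kap followed with 611 and Gpx3 with 241, while Lrp2 held 9 and Aqp1 and Aqp2 3 each. Whether the Fxyd2 UMIs came from tubule cells or from the macrophages was not tested, nor was the regional change of each marker alone. The part of tubule transcripts in the differences above was not tested either. Hemoglobin was nearly absent, with 21 UMIs of Hbb-bs, 11 of Hba-a1, 5 of Hba-a2 and 3 of Hbb-bt in all 5367 cells, and 1117 of these cells held at least 2 UMIs from markers of B or T cells. Without those 1117 cells the Slc40a1 difference was −0.90.

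Beyond the members, 7 lists of iron and heme genes with 66 genes were examined in the same test of resident macrophages, and 37 of them passed the filter on low counts. None was called between medulla and cortex, OM and cortex, IM and cortex, or OM and IM, with 1, 2, 0 and 1 genes at an unadjusted p under 0.05 in turn. DESeq2 called none of the 37 in any of these comparisons, with 0 at an unadjusted p under 0.05. The gene at p under 0.05 in the medulla was Lrp1, an endocytic receptor for heme bound to hemopexin, at 0.54 ± 0.20 (adjusted p = 0.315). The median difference over the 37 genes was 0.07.

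By level, iron uptake and transport was led by Slc25a28 (31.2 ± 15.3 CPM), a mitochondrial iron carrier, and Mcoln1 (26.6 ± 9.79), a lysosomal channel. Export control was led by Hfe (59.9 ± 10.4 CPM), whose difference was −0.23 ± 0.15, and by the ferroxidase gene Cp (6.02 ± 3.89). The cytosolic iron chaperones Pcbp1 (245 ± 80.4 CPM) and Pcbp2 (128 ± 49.2) led iron sensing and storage. The constitutive heme oxygenase Hmox2 stood at 101 ± 26.5 CPM and Lrp1 at 39.0 ± 20.5. For heme synthesis Alas1, the first enzyme of the pathway, stood at 24.1 ± 6.70 CPM and Ppox at 15.1 ± 4.33, and for iron-sulfur clusters Iscu at 101 ± 10.0 and Glrx5 at 33.6 ± 2.16. Among the regulators of Hmox1, the activator Nfe2l2 stood at 195 ± 69.7 CPM and the heme-sensing repressor Bach1 at 58.8 ± 37.3. None of these 14 genes passed the test between medulla and cortex.

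In conventional dendritic cells (cDC1 and cDC2 together) Fth1 was higher in the medulla. It stood at 3089, 4516 and 3552 CPM in cortex, OM and IM of Aachen, at 3219, 3890 and 4893 CPM in Bonn and at 3821, 5807 and 4732 CPM in Hamburg. In each dataset both medullary regions lay above the cortex. The log2 difference was 0.42 ± 0.10 (adjusted p = 0.0469), higher in 3 of 3 datasets, and Fth1 was the only 1 of 6 members tested to pass, where 1.81% of all 7293 genes did. The call was lost with DESeq2 (0.42, adjusted p = 0.218), without Aachen (adjusted p = 0.156) or without Hamburg (0.436), and with cells thinned to 500 UMIs (0.30, adjusted p = 0.228).

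The make-up of the dendritic cells moved with the region. cDC2, the cluster with more Fth1, made up 33.8 to 59.7% of the cortical dendritic cells, 73.4 to 85.1% of those of OM and 64.1 to 89.8% of those of IM. Within cDC1 the Fth1 difference was 0.12 ± 0.11, where 0.0634% of genes passed, and within cDC2 0.11 ± 0.12, where 0.304% passed. With both clusters weighted equally it was 0.11. Hmox1 was 26.2, 56.2 and 42.7 CPM in cortex, OM and IM of Aachen, 8.11, 5.10 and 15.5 CPM in Bonn and 54.6, 84.4 and 88.4 CPM in Hamburg, a difference of 0.66 ± 0.23 that did not pass (adjusted p = 0.214). Within cDC2 the Hmox1 difference was 1.72 ± 0.45 (adjusted p = 0.147), and without Bonn 2.32 (adjusted p = 0.0271).

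The opposite directions of Fth1 in the macrophages and the dendritic cells were tested as a difference of differences, with the library as block. The difference between the classes could vary between datasets in this fit. The medulla effect was lower in resident macrophages than in dendritic cells by −0.73 ± 0.12 on the log2 scale (adjusted p = 1.81e-05), where 2.04% of 9445 genes passed, and Fth1 was the only member called. It was −0.66 to −0.79 with each dataset left out in turn and passed each time. With Macrophage_1 and Macrophage_2 weighted equally, and likewise cDC1 and cDC2, the difference was −0.25 ± 0.14 (adjusted p = 1), where 0.0454% of genes passed. That fit left out Macrophage_3 and Isg+_Macrophage. Its block was the dataset within each cluster, not the library. Within Macrophage_1 and Macrophage_2 the Fth1 difference between medulla and cortex was −0.25 ± 0.14 and −0.07 ± 0.12, and 0.02% of genes passed in Macrophage_2.

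**Figure D4:**
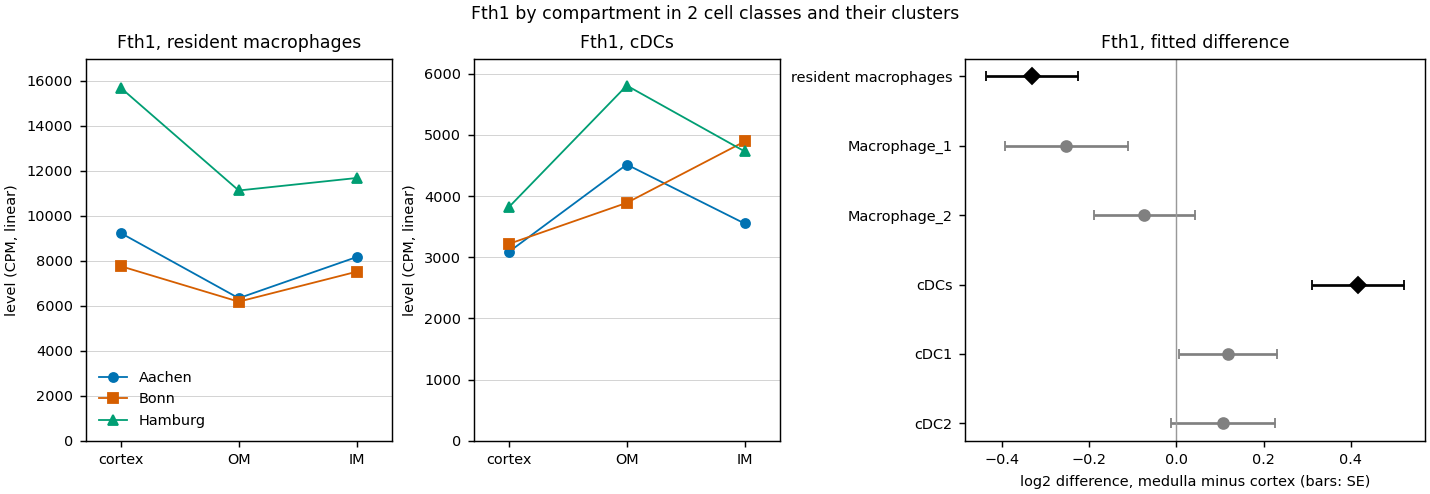
Fth1 by region in resident macrophages (left) and in conventional dendritic cells (middle), as CPM per library on linear axes from 0, and the fitted log2 difference of medulla minus cortex with SE bars (right) for each class and for single clusters. The classes lie on opposite sides of 0 (−0.33 and 0.42), and the single clusters lie nearer to 0.

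Against B cells the difference of the Fth1 effect was −0.31 (adjusted p = 0.255), where 1.18% of genes passed, and without Bonn −0.45 (adjusted p = 0.00850). Against T cells no member passed, where 0.44% of genes did. In T cells themselves 0.0335% of 8957 genes and 0 of 6 members passed between medulla and cortex, with 514 genes at an unadjusted p under 0.05, and in B cells 0.0898% of 8911 genes and 0 of 7 members did, with 294 genes at an unadjusted p under 0.05. DESeq2 called no gene in either class. Fth1 differed by −0.07 ± 0.09 in T cells and by −0.04 ± 0.07 in B cells, and Ftl1 by 0.01 ± 0.09 and −0.01 ± 0.08.

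Of 19 clusters with enough libraries for a fit of their own, 17 had no member past the threshold, with 0 to 0.359% of all genes called. In Macrophage_1 Slc40a1 was lower in the medulla by −2.38 ± 0.58 (adjusted p = 0.0494), where 0.516% of genes passed, and in IM alone by −3.52 (adjusted p = 0.0225), where 0.244% did. The cortical side of this rests on 18 UMIs in 2 of 24 Bonn cells and 9 UMIs in 4 of 294 Aachen cells. In Hamburg the share of Macrophage_1 cells with a Slc40a1 UMI was 2.99% in cortex (6 UMIs), 3.125% in OM (11 UMIs) and 3.40% in IM (8 UMIs), so that the cortex was not the highest region there. Without the Bonn cortex library the difference was −1.24 (adjusted p = 0.864), without Aachen −2.17 (adjusted p = 0.158) and without Hamburg −3.54 (adjusted p = 0.00328). Slc11a1 had a like direction in Macrophage_1 at −0.75 ± 0.20 (adjusted p = 0.0901).

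In the proliferating cells Hmox1 was lower in the medulla by −6.07 ± 0.80 (edgeR, adjusted p = 1.09e-10), where 0.536% of genes passed. This fit had only 6 libraries for 3 regions and 3 datasets. Few residual degrees of freedom were left, so that the small p-value is not evidence from replicates. The 29 cells of the Hamburg cortex held 77.8 Hmox1 UMIs (301 CPM), and the other 5 libraries held 0 to 27.4 CPM each. Without that library no residual degree of freedom was left for a fit.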

How the data were processed

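The authors sorted live CD45+ cells, sequenced them with 10x Genomics chemistry, mapped reads to mm10 with Cell Ranger, and filtered, integrated and clustered the cells in Seurat. The deposited values are expected counts of UMIs per gene and cell, not scaled to depth. They were whole numbers in Aachen and Bonn, and 0.113 to 0.124% of nonzero values were whole in Hamburg, so the authors' estimated counts were rounded after summing. How the Hamburg values were corrected, and any removal of doublets, is not given in the sources used here, and no doublet caller was run. Library totals were 2122809 to 15267126 UMIs.

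Counts were summed per library and class for groups of at least 10 cells, filtered with filterByExpr, scaled by TMM and tested with glmQLFit and glmQLFTest of edgeR 4.0.16 in R 4.3.3. SE is the log2 difference divided by the square root of F. The dataset was a block, since profiles of 8687 genes, centred on the mean of the datasets in each region, correlated at 0.81 to 0.91 within datasets (9 pairs). Between datasets they correlated at −0.80 to 0.48 (18 pairs). The centring itself pulls these latter values below 0, so that they are no separate reason for the block. DESeq2 1.42.0, RLE scaling, no filter, no block, cells thinned to 500 UMIs and each dataset or a named library left out were the alternatives. The members and all gene lists were chosen with earlier results of these data known. Named genes are the 9 members, the 2 most abundant genes of each list with none called, and the 3 genes most like each member. Intervals cover counting error only.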

Additional observations from a re-analysis of the deposited data

Results flagged for a closer look

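The Fth1 difference between medulla and cortex ran in opposite directions in resident macrophages (−0.33 ± 0.11) and in conventional dendritic cells (0.42 ± 0.10), and the test of that difference itself gave −0.73 ± 0.12 on the log2 scale (edgeR, adjusted p = 1.81e-05). Macrophages were lower in the medulla in 3 of 3 datasets and dendritic cells higher in 3 of 3. The cluster make-up of both classes moved with the region. With Macrophage_1, Macrophage_2, cDC1 and cDC2 weighted equally within their class, the difference was −0.25 ± 0.14 (edgeR, adjusted p = 1). That fit left out Macrophage_3 and Isg+_Macrophage.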

How the results depend on the processing

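Over 219 alternative values of single members, from refits and from means over cluster fits, 183 counted as the same. For a refit this meant the same direction and side of the threshold. For a mean over cluster fits, which has no p-value, it meant the same direction and a distance under the SD over datasets. The 21 that reversed were not called before or after. In resident macrophages the count of members called between medulla and cortex was 0, and 2 (Slc11a1 and Slc40a1) with no filter on low counts, without the Aachen IM library, and without Aachen (range 0 to 2 with each dataset left out). Between IM and cortex it was 0, and 3 without Aachen or its IM library (Slc11a1 and Slc40a1 lower, Hmox1 higher) and 2 with no filter. Between OM and cortex it was 0, and 3 with no filter (Fth1, Slc11a1 and Slc40a1, all lower, beside 1.99% of genes). In dendritic cells the count of 1 (Fth1) became 0 after thinning, with DESeq2 and without the block, and was 0 to 1 with each dataset left out. In single clusters it was 0 to 2, and for the difference between classes 1 to 2, with each dataset left out. Calls that rest on a library of few cells, as for Slc40a1 and for Hmox1 in proliferating cells, are the least firm, and the cause of the other changes was not tested.

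The replicate block was the dataset. Without the block no gene was called in macrophages, T cells, B cells or dendritic cells (109, 29, 11 and 130 genes at an unadjusted p under 0.05). For the difference between classes the library block stayed, and only the terms that let the class difference vary between datasets were dropped. The count of members called was then 0, and the Fth1 difference of −0.73 had an adjusted p of 0.357. Its value was −0.25 with Macrophage_1, Macrophage_2, cDC1 and cDC2 weighted equally within their class. Without the block the differences that changed sign were 0.49 for Hmox1 and 0.47 for Blvrb in T cells, 4.24e-04 for Ftl1 in B cells and 0.12 for Blvrb in dendritic cells.

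Among the other reversals, Blvrb in macrophages was −0.00306 with DESeq2 and −0.081 to 0.079 with each dataset left out. Its mean over the fits of Macrophage_1 and Macrophage_2 was −0.047. In dendritic cells Blvrb was 0.12 with DESeq2. In T cells the ranges with each dataset left out were −0.38 to 0.14 for Hmox1, −1.06 to 1.18 for Blvrb, −0.067 to 0.075 for Ftl1, −0.48 to 0.61 for Trf and −0.38 to 0.069 for Slc11a2, and with no filter Ftl1 was −0.036 and Trf −0.011. In B cells Ftl1 ranged from −0.035 to 0.032, Blvrb was 0.18 after thinning and Slc11a2 was −0.00589 with no filter. The highest cluster was kept for 7 of 9 members without Aachen, for 9 of 9 without Bonn, for 7 of 7 without Hamburg, where Blvrb and Tfrc are listed at 0, and for 7 of 9 by the share of thinned cells. Clusters measured in a single dataset were left out of this ranking.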

Other observations

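Trf was also examined within single macrophage clusters. In the cluster the authors named Isg+_Macrophage it stood at 135, 320 and 634 CPM in cortex, OM and IM of Aachen, at 367, 522 and 577 CPM in Bonn and at 174, 367 and 245 CPM in Hamburg. Both medullary regions lay above the cortex in 3 of 3 datasets. The difference of 0.91 ± 0.29 did not pass the test over all genes of the cluster (edgeR, adjusted p = 0.469), where 0.107% of genes did, and the libraries held 12 to 59 cells of the cluster.

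Plasmacytoid dendritic cells, which reached 10 cells in 3 libraries, held 7978 CPM of Fth1 in Bonn and 10674 in Hamburg, within the range of Macrophage_1 (8085 to 12850 CPM) or close below it. Their Blvrb level in Bonn was 154 CPM. In monocytes, which had the second-highest mean Ftl1 level with a range that overlapped that of Macrophage_1, 0 of 6 tested members passed between medulla and cortex, against 0.332% of all genes, and Fth1 differed by −0.013 ± 0.10. In NK_cell_1 the Fth1 difference was −0.56 ± 0.17 (edgeR, adjusted p = 0.305, with 0.145% of genes called), and the Aachen cortex library of 23 cells stood apart at 3925 CPM, against 911 to 2544 CPM in the other 7 fitted libraries.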
